A study of Mus musculus with 18 samples.

Results

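C2C12 cells are a mouse myoblast line that leaves the cell cycle and fuses into myotubes when serum is withdrawn. The comparison described here is the difference between 2 differentiation responses. The response of a line is its change from myoblasts, kept in growth medium with 10% fetal bovine serum, to myotubes after 3 days in 2% horse serum. The response of the control line was subtracted from that of the line labelled knockout, so that a negative value is a lower response in the knockout. The control was a sorted EGFP-positive population that had received the pX458 vector without guides. The knockout, clone 2-7, labelled a knockout of the imprinted Dlk1-Dio3 cluster, was grown from a single cell after Cas9 and guide pairs against the promoter of Meg3, a non-coding RNA gene of that cluster. The comparison used 12 of the 18 libraries, 3 per line and stage (A, B and C), and 17912 of the 55450 gene IDs in the table passed the filter on low counts. The other 6 libraries, of clone 2-4, labelled an overexpressor of the cluster, helped to estimate the spread and are compared only where named.

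Each genotype was 1 line, so genotype and clone cannot be told apart, and the control was not cloned from a single cell. The labels do not say whether A, B and C were separate cultures. The p-values therefore measure the spread between samples of 1 line, which may be technical. The 12 libraries held 42376830 to 63456607 counts, so that 3 counts, the most a count of 0 allows, correspond to 0.0502 to 0.0687 CPM (counts per 1000000 of the scaled library size). Intervals and limits of this kind cover counting error only. The targeted RNA did not separate the lines: Meg3 and Mirg had 0 counts in all 12 libraries. For Rtl1, a protein-coding gene of the same cluster, the 6 control libraries held 0 counts, those of knockout myoblasts 6 to 14 and those of knockout myotubes 31 to 41. Myod1, the transcription factor that defines the myoblast lineage, lay between 193 and 423 CPM in the 12 libraries, so both lines carried the marker of the labelled cell type. Replicates varied by 6.51% in control myoblasts, 4.27% in knockout myoblasts, 9.23% in control myotubes and 12.5% in knockout myotubes (biological coefficient of variation).

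Differentiation of myoblasts is driven by the MyoD family and MEF2 factors, which switch on sarcomere, calcium-handling and fusion genes while E2F-driven replication genes and mitotic genes are shut down. Amino acid supply, secreted matrix and growth factors such as the IGFs take part in the growth of new fibres, and stress signals through ATF4 regulate amino acid genes. A difference in response can come from the starting level, the end level or both, so the levels at both stages are given below.

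In the knockout most muscle structural genes rose by a smaller factor, most amino acid supply and matrix genes rose less or fell, and most replication genes fell less, as counted for each group below. Of the 17912 genes, 8978 (50.1%) had a response in the knockout that differed from that in the control at an adjusted p of 0.05 (edgeR's quasi-likelihood test of the interaction, Benjamini-Hochberg adjustment over all genes tested, as for every gene below). The response was higher in the knockout for 3623 genes (20.2%) and lower for 5355 (29.9%), and 4218 genes (23.5%) differed by at least 2-fold. The split depended on the scaling of the libraries. Of the calls, 40.4% were higher with TMM factors, 47.2% with library totals (4206 higher and 4708 lower) and 52.0% with DESeq2 size factors (4623 higher and 4273 lower). The median difference over all genes tested was −0.12, −0.04 and 0.04 on the log2 scale in that order. List medians below are to be read against −0.12, and counts of list members against 20.2% higher and 29.9% lower.

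In the control, 11240 genes (62.8%) passed the test, of which 6074 (33.9%) rose and 5166 (28.8%) fell. In the knockout, 11707 genes (65.4%) passed, with 5330 (29.8%) rising and 6377 (35.6%) falling. Between lines, 9489 genes (53.0%) differed in myoblasts, 4720 (26.4%) higher and 4769 (26.6%) lower in the knockout. In myotubes 12180 genes (68.0%) differed, 5557 (31.0%) higher and 6623 (37.0%) lower. These contrasts share libraries with each other and with the interaction. Counts of list members that rose, fell or differed between lines at a stage are to be read against the shares given here.

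The 8978 genes were sorted by what each line did. A response was called reversed where both lines responded in opposite directions, smaller or larger where both responded in the same direction, and control only or knockout only where a single line passed its own test. Directions below are those of the control response, or of the knockout response for knockout only. Reversed genes numbered 1471 (16.4% of the calls): 930 that rose in the control (5.19% of genes tested) and 541 that fell (3.02%). Smaller responses numbered 2017 (22.5%): 1047 that rose (5.85% of genes tested) and 970 that fell (5.42%). Control-only responses numbered 2128 (23.7%), with 1195 that rose (6.67%) and 933 that fell (5.21%). Larger responses were the fewest at 843 (9.39%), with 387 that rose (2.16%) and 456 that fell (2.55%). Knockout-only responses numbered 2347 (26.1%), of which 735 rose (4.10%) and 1612 fell (9.0%). The remaining 172 genes fitted none of these classes.

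**Figure D1:**
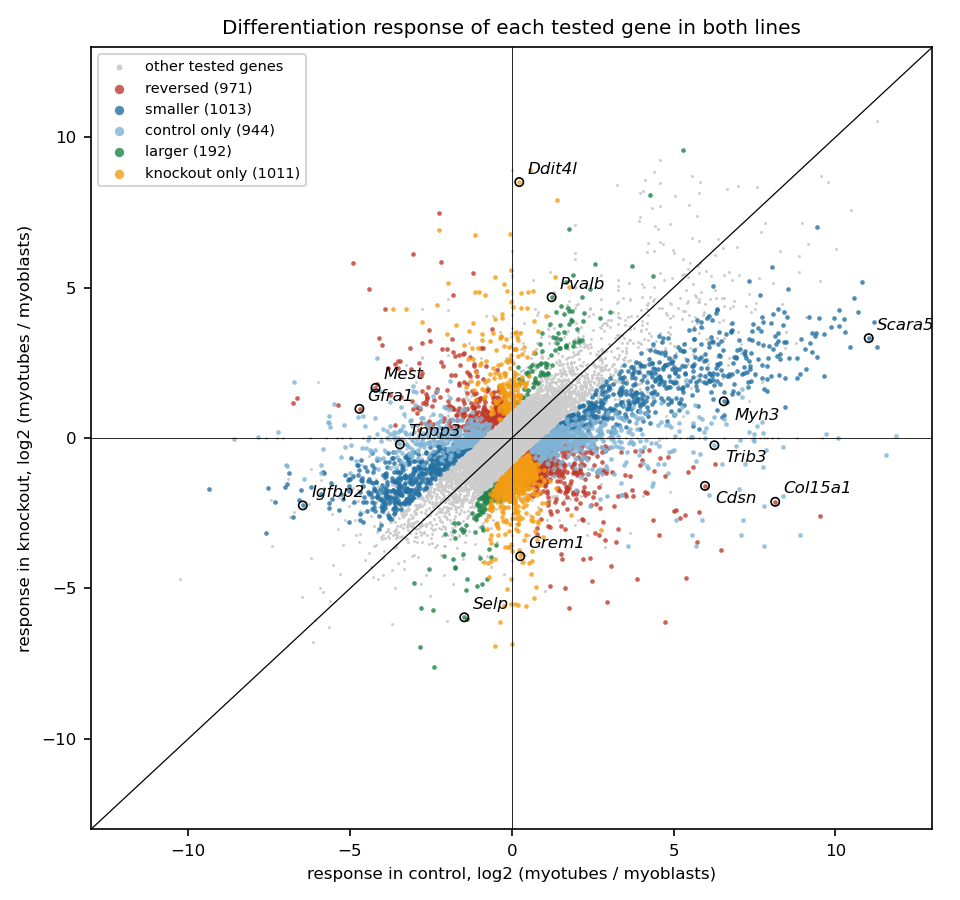
Response of each tested gene in the control (horizontal axis, log2 of myotubes over myoblasts) against its response in the knockout (vertical axis, same scale), with the diagonal of equal responses; coloured points are called genes that differ by at least 2-fold, with their number per class. Smaller (1013) and control-only (944) genes stretch along the horizontal axis, knockout-only genes (1011) along the vertical axis, and reversed genes (971) fill the quadrants of opposite signs, with Col15a1 and Cdsn at the lower right and Mest and Gfra1 at the upper left.

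The stage at which the lines differed was not the same for all classes. Among genes that differed by at least 2-fold, the 556 smaller responses that rose had a median difference between lines (knockout over control, log2) of 3.12 in myoblasts and 0.51 in myotubes. For 80.0% of them the larger part lay in myoblasts, and for 283 (50.9%) the gain in CPM was at least as large in the knockout as in the control. The 457 smaller responses that fell showed the opposite order, with medians of −0.47 in myoblasts and 1.25 in myotubes, and the myoblast part was larger for 26.9% of them. Reversed genes that rose in the control differed chiefly in myotubes (median 0.23 in myoblasts and −1.46 in myotubes, 640 genes), as did knockout-only genes that fell (0.12 and −1.29, 793 genes). In 237 reversed genes both opposite responses were at least 2-fold.

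**Figure D2:**
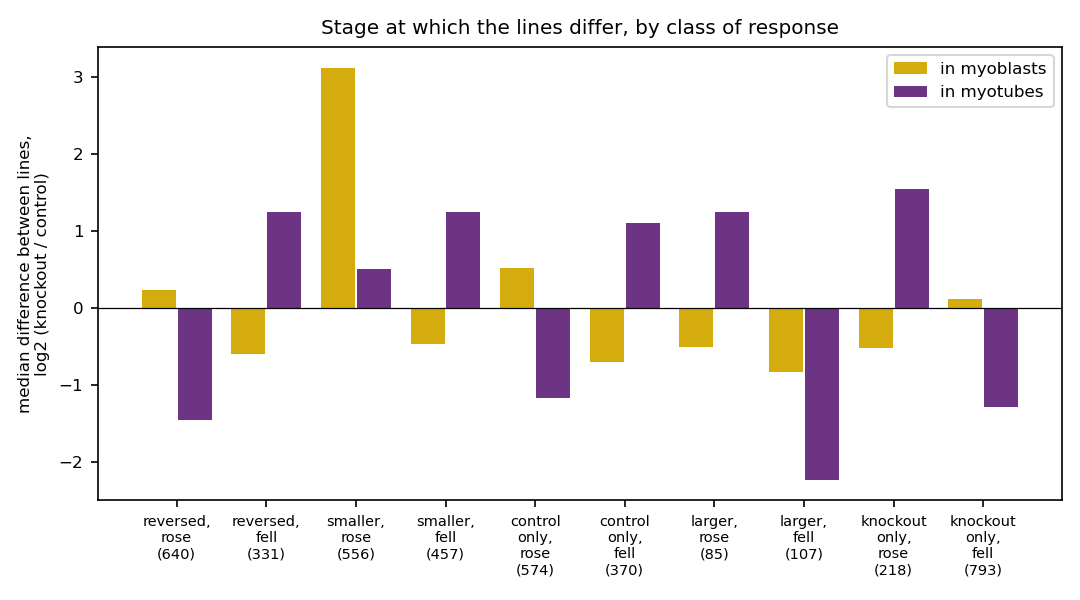
Median difference between the lines (log2 of knockout over control, vertical axis) in myoblasts and in myotubes for each class and direction of called genes that differ by at least 2-fold, with the number of genes under each pair of bars. The pair of bars for smaller responses that rose is the only pair in which the myoblast bar (3.12) is the taller.

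Sarcomere genes had the median difference farthest from 0 of the 28 lists, and most were already raised in knockout myoblasts. Of 68 sarcomere genes tested, 56 had a lower and 7 a higher response in the knockout, with a median difference of −3.54. Their median response was 5.76 in the control and 2.00 in the knockout, and 53 of the 68 were in the class of smaller responses that rose. Of the 68, 63 rose in the control and 64 in the knockout. The list summed to 4570 to 4970 CPM in control myoblasts and 28400 to 35100 CPM in knockout myoblasts, and to 44500 to 44800 and 103000 to 123000 CPM in the respective myotubes. In myoblasts 60 of the 68 genes were higher in the knockout, and in myotubes also 60. For 58 of the 68 the change in CPM, up or down, was at least as large in the knockout. In bulk RNA, fewer cells of a type and less RNA per cell cannot be told apart, which holds for every group below.

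Myh8 (chromosome 11, 67277124 to 67308634, plus strand, GRCm38) encodes the perinatal myosin heavy chain, a member of a multigene family whose reads may be shared. It had 0.131, 0.0769 and 0.0223 CPM in control myoblasts (1 to 7 counts), 130, 124 and 153 CPM in control myotubes, 27.4, 33.3 and 25.4 CPM in knockout myoblasts, and 524, 519 and 538 CPM in knockout myotubes. No 2 of the 4 groups overlapped, and the knockout was above the control at both stages. The log2 response was 10.69 ± 0.34 (SE) in the control and 4.20 ± 0.20 in the knockout, a difference of −6.50 ± 0.45 (adjusted p = 1.47e-08), whereas the gain was 136 CPM in the control and 498 CPM in the knockout. Acta1, skeletal muscle actin, rose in the control (76.7 to 5340 CPM) and in the knockout (4250 to 15700 CPM; means, difference −4.23 ± 0.33, adjusted p = 8.93e-08). Ankrd2, a stretch-responsive ankyrin repeat protein of the sarcomere, differed from this in its end level. Its means were 0.124 and 57.8 CPM in the control and 10.6 and 42.7 CPM in the knockout (difference −6.81 ± 0.36, adjusted p = 3e-10), so its myotube level was lower in the knockout (log2 −0.44, adjusted p = 0.0287).

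Mef2c, Cav3 and Tmem182, outside the sarcomere list, also had raised levels in knockout myoblasts. Of their lists, 17 of 32 myogenic regulatory factors were higher and 2 lower in knockout myoblasts (median 0.45), and 16 of 33 fusion and adhesion genes were higher and 13 lower (median 0.05). Mef2c, a transcription factor of muscle genes, had 0.131, 0.135 and 0.223 CPM in control myoblasts, 81.5, 66.7 and 84.8 CPM in control myotubes, 26.9, 29.6 and 23.0 CPM in knockout myoblasts, and 148, 99.5 and 98.5 CPM in knockout myotubes. Its myoblast libraries held 7 to 10 counts in the control and 1251 to 1627 in the knockout. Its response differed by −6.78 ± 0.53 (adjusted p = 8.18e-08), while the lines did not differ in myotubes by the test (0.57, adjusted p = 0.0548). Cav3, the caveolin of muscle membranes, had 0.169, 0.192 and 0.178 CPM in control myoblasts and 24.0, 29.3 and 23.0 CPM in knockout myoblasts. It reached 129, 131 and 120 CPM in control myotubes and 145, 161 and 184 CPM in knockout myotubes, with a difference in response of −6.76 ± 0.25 (adjusted p = 8.87e-12).

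Tmem182, a transmembrane protein of muscle that restrains fusion, had 1.42, 1.61 and 1.47 CPM in control myoblasts, 257, 224 and 223 CPM in control myotubes, 84.3, 110 and 86.0 CPM in knockout myoblasts, and 306, 305 and 303 CPM in knockout myotubes. The myoblast level was 62.2-fold higher in the knockout and the myotube level 1.30-fold higher, and the response differed by −5.58 ± 0.16 (adjusted p = 2.36e-14). The promoter of Tmem182 is shown because it holds the E-box of the MyoD family. The stretch on the plus strand of GRCm38.p6 (RefSeq), from 250 to 21 bases before the start of the gene, chr1:40805351-40805580, holds CAGCTG, in capitals, 41 bases before the start.
Tmem182: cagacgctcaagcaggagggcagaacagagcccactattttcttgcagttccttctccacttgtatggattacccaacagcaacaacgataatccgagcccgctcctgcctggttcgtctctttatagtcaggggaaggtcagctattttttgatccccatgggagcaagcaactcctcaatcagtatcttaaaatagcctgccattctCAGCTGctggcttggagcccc
Of 11505 tested genes with a RefSeq promoter, 15.2% held CAGCTG, which reads the same on both strands, in the 250 bases before the start. The share was 40.7% (22 of 54, 95% Wilson interval 28.7 to 54.0%) for sarcomere genes, 44.0% (11 of 25) for excitation-contraction coupling genes and 23.2% (88 of 379) for all smaller responses that rose and differed by at least 2-fold, the group meant by this name in the promoter counts below. With the same limit of 2-fold, the share was 22.8% (53 of 232) for reversed genes that fell in the control. It was 22.4% (36 of 161) for knockout-only genes that rose, and 14 of 56 larger responses that rose held the word. These genes had a higher response in the knockout, so such a share was not particular to lower responses. The remaining classes ran from 11.9% (knockout only, fell) to 19.9% (control only, rose). A match is a description of letters and not of binding.

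Calcium-handling and synapse genes of muscle behaved like the sarcomere list, but less uniformly. Of 38 tested, 24 had a lower and 8 a higher response in the knockout (median difference −0.96), and 33 were higher in knockout myoblasts. In myotubes 34 were higher in the knockout, and for 34 the change in CPM, up or down, was at least as large in the knockout. The list summed to 8210 to 8430 CPM in control myotubes and 18100 to 20900 CPM in knockout myotubes. Casq2, a calcium-binding protein of the sarcoplasmic reticulum, rose in the control (4.84 to 538 CPM) and in the knockout (284 to 1230 CPM; means, difference −4.68 ± 0.30, adjusted p = 8.02e-09). Fusion and adhesion genes had 17 lower and 2 higher responses among 33 (median −0.44). The list of myogenic regulatory factors had 15 lower and 8 higher among 32 (median −0.45), and Myod1 did not pass (0.23 ± 0.14, adjusted p = 0.181). Among the higher ones were genes that fall on differentiation and fell less in the knockout. Id3, an inhibitor of MyoD, fell in the control (305 to 11.7 CPM) and in the knockout (263 to 45.6 CPM; difference 2.18 ± 0.19, adjusted p = 1.23e-07). Pax7, the satellite cell factor, went from 42.1 to 5.64 CPM and from 18.2 to 12.6 CPM (2.38 ± 0.13, adjusted p = 1.43e-10).

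Not every muscle gene had a smaller log2 response in the knockout, and the 4 genes that follow responded more in the knockout or passed the test there alone. Pvalb (chromosome 15, 78191114 to 78206400, minus strand), the calcium buffer parvalbumin of fast fibres, had 1.14, 1.1 and 0.958 CPM in control myoblasts, 1.93, 2.86 and 2.74 CPM in control myotubes, 0.581, 0.801 and 0.658 CPM in knockout myoblasts, and 16.3, 17.3 and 19.3 CPM in knockout myotubes. The knockout myotubes stood above the libraries of these other groups, and the response was larger than in the control by 3.46 ± 0.24 (adjusted p = 1.91e-09). It was larger still in the overexpressor (knockout minus overexpressor −2.94). Tmod4, a skeletal tropomodulin that caps thin filaments, lay between 0.412 and 0.796 CPM in all of the 12 libraries except knockout myotubes, which had 5.11, 4.20 and 4.89 CPM (difference 3.41 ± 0.35, adjusted p = 2.94e-07). Tpm1, a tropomyosin, rose in the knockout only, from 1610 to 3360 CPM, and had 1240 and 1220 CPM in the control (1.08 ± 0.09, adjusted p = 2.73e-08), a call that was lost in a test against a 2-fold difference. Mybpc2, a myosin-binding protein of fast fibres, had 0 to 2 counts in every myoblast library, 0.778 to 0.966 CPM in control myotubes and 15.4 to 17.4 CPM in knockout myotubes. The myotube difference of 4.22 (adjusted p = 2.61e-12) rests on these levels. The difference in response (4.28 ± 1.31, adjusted p = 0.0119) rests on counts near 0 and lost its call without control myoblast replicate B (adjusted p = 0.185), and the exons of Mybpc2 overlap Gm44646 on the opposite strand.

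Clcn1, the chloride channel that sets the resting conductance of muscle, was reversed. It had 0.786, 0.385 and 0.757 CPM in control myoblasts, 0.208, 0.160 and 0.289 CPM in control myotubes, 0.774, 1.02 and 0.801 CPM in knockout myoblasts, and 6.32, 5.01 and 6.73 CPM in knockout myotubes. Only the knockout myotubes stood high, and the control fell 2.93-fold while the knockout rose 6.96-fold (difference 4.30 ± 0.37, adjusted p = 3.12e-08). Its exons overlap Fam131b on the opposite strand, and without the strand setting of the counts the reads of both cannot be told apart. The promoter is printed for its MEF2 site, in capitals, 51 bases before the start (RefSeq, GRCm38.p6, plus strand, chr6:42286435-42286664).
Clcn1: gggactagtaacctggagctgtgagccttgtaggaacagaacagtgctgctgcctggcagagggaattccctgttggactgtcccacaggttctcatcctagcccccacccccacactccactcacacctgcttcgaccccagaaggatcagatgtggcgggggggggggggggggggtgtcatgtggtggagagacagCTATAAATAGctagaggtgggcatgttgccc
A MEF2 site stood in 0.643% of all promoters, in 11.1% of those of sarcomere genes (6 of 54), in 3.43% of those of smaller responses that rose (13 of 379) and in 2.59% of those of reversed genes that fell in the control (6 of 232). The reverse case was Ankrd1, a muscle ankyrin repeat protein that responds to load. It went from 207, 174 and 187 CPM to 1140, 1020 and 1270 CPM in the control, and from 460, 506 and 461 CPM to 414, 365 and 350 CPM in the knockout (difference −2.93 ± 0.19, adjusted p = 1.54e-09). Its groups did not overlap, and the knockout was higher in myoblasts but lower in myotubes.

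**Figure D3:**
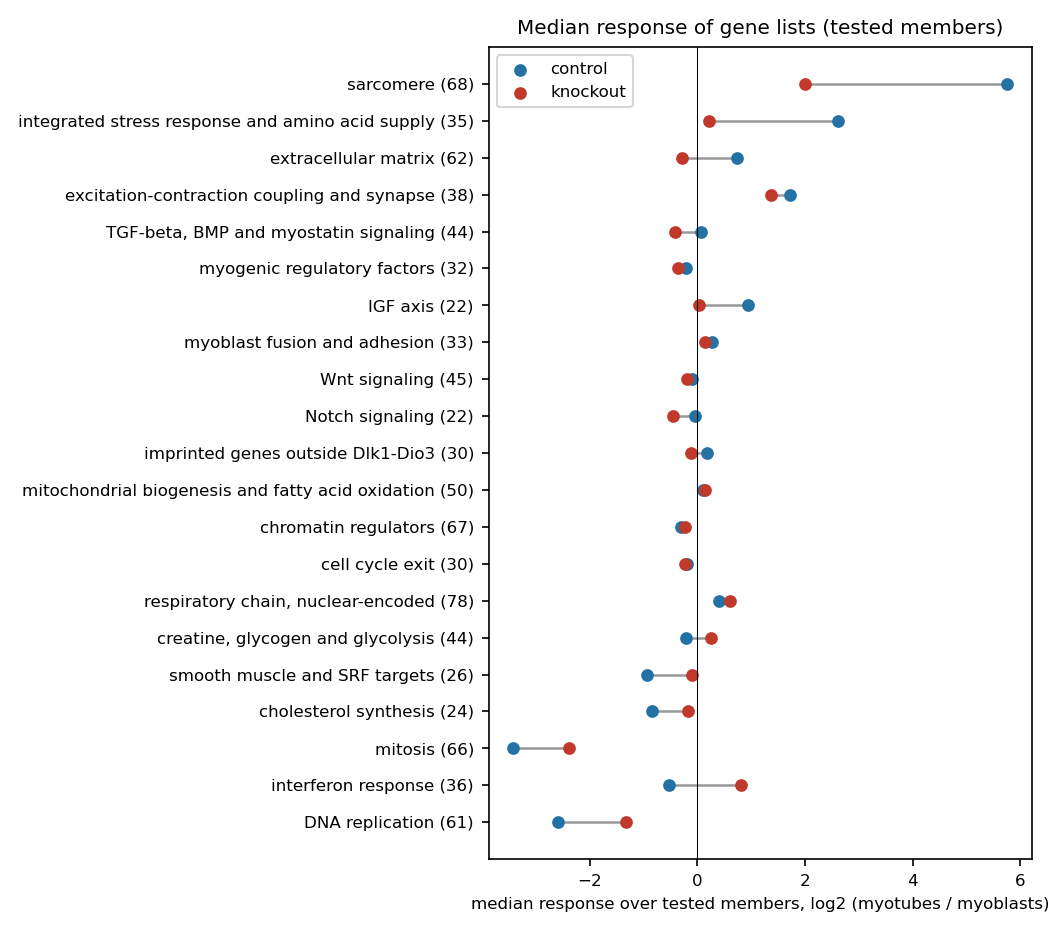
Median log2 response (myotubes over myoblasts, horizontal axis) of the tested members of 21 gene lists in the control and the knockout, with the number of tested members in brackets and lists ordered by their median difference. The sarcomere list (5.76 in the control and 2.00 in the knockout) and the list of integrated stress response and amino acid supply (2.61 and 0.22) have the longest lines, and the DNA replication (−2.59 and −1.33) and mitosis (−3.42 and −2.38) lists move towards 0 from the other side.

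Replication and mitosis genes fell in both lines and fell less in the knockout. Of 61 replication genes, 50 had a higher response in the knockout, that is a smaller fall, and 2 a lower one (median difference 1.18), and all 50 were in the class of smaller responses that fell. They summed to 5190 to 5780 CPM in control myoblasts, 1260 to 1340 CPM in control myotubes, 3900 to 4170 CPM in knockout myoblasts and 1850 to 1970 CPM in knockout myotubes. The knockout thus began lower and ended higher: 44 of the 61 genes were lower in myoblasts and 45 higher in myotubes. Among 66 mitosis genes 44 had a higher and 1 a lower response (median difference 0.89), and every one of the 66 fell in both lines.

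Uhrf1, which brings the maintenance DNA methyltransferase to newly replicated DNA, had the largest difference of the replication list. It had 187, 194 and 213 CPM in control myoblasts, 4.51, 7.58 and 6.28 CPM in control myotubes, 122, 116 and 129 CPM in knockout myoblasts, and 35.8, 36.8 and 35.3 CPM in knockout myotubes. The groups did not overlap. The fall was 32.4-fold in the control and 3.41-fold in the knockout (difference 3.25 ± 0.18, adjusted p = 2.66e-10). The promoter of Uhrf1 (RefSeq, GRCm38.p6, plus strand, chr17:56303087-56303316) is shown for TTCCCGCC, in capitals, 48 bases before the start, which is the E2F-type word GGCGGGAA read on the opposite strand.
Uhrf1: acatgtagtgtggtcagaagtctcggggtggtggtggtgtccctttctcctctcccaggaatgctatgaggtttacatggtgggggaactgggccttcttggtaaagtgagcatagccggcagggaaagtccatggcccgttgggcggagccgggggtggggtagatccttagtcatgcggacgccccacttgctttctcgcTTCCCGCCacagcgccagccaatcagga
GGCGGGAA on either strand stood in 3.84% of all promoters, 8.0% of those of replication genes (4 of 50, 95% Wilson interval 3.15 to 18.8%) and 5.68% of those of smaller responses that fell (18 of 317). In this window the interval for replication genes includes the share of all promoters. Of the promoters of mitosis genes 0 of 56 held the word, here and in the wider window that follows. In the whole window of 300 bases, which runs past the start, the word stood in 4.49% of all promoters. It stood in 16% of those of replication genes (8 of 50, interval 8.34 to 28.5%) and 9.46% of those of smaller responses that fell (30 of 317, interval 6.71 to 13.2%). These intervals lie above the share of all promoters. The sets share genes, however, and the word was chosen after seeing the data.

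Cdc6, which loads the MCM helicase at origins, fell in the control (37.3 to 1.73 CPM) and in the knockout (27.9 to 10.5 CPM; means, 3.02 ± 0.20, adjusted p = 1.1e-09). Mcm5, a subunit of that helicase, fell from 236 to 11.7 CPM and from 146 to 52.7 CPM (2.87 ± 0.27, adjusted p = 6.27e-07). The mitosis genes followed with Espl1, the separase that cleaves cohesin, at 123 and 6.09 CPM in the control and 65.1 and 16.6 CPM in the knockout (2.36 ± 0.15, adjusted p = 4.69e-10), and with Mybl2, a transcription factor of late cell cycle genes (2.51 ± 0.17, adjusted p = 1.88e-09). Orc6, a subunit of the origin recognition complex, went the other way, from 70.8 to 52.2 CPM in the control and from 35.6 to 14.6 CPM in the knockout (−0.84 ± 0.12, adjusted p = 9.38e-06). Its call was lost in a test against a 2-fold difference, and its exons overlap Vps35 on the opposite strand. The 30 genes of cell cycle exit were split into 9 higher (30.0%) and 8 lower (26.7%), with a median of 0.07, or 12 and 6 with DESeq2 size factors. Gadd45a, a stress-induced growth arrest gene, rose 10.6-fold in the control and 1.57-fold in the knockout (−2.75 ± 0.15, adjusted p = 1.07e-10); it overlaps E230016M11Rik on the opposite strand.

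Amino acid supply and stress genes rose in the control and rose far less, or fell, in the knockout. Of 35 genes of the integrated stress response and its amino acid targets, 32 (91.4%) had a lower response in the knockout and 1 a higher one, against 29.9% and 20.2% of all genes, with a median difference of −2.54. The list summed to 3290 to 3530 CPM in control myoblasts and 14400 to 15200 CPM in control myotubes. In the knockout it summed to 4640 to 4800 CPM in myoblasts and 5080 to 5660 CPM in myotubes. In contrast to the sarcomere genes, the lines differed mainly in myotubes, where 34 of 35 genes were lower in the knockout, while 24 of 35 were higher in knockout myoblasts. The control rose for 32 of the 35, and the knockout rose for 18 and fell for 7.

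Atf4, the transcription factor at the head of this response, had 285, 285 and 288 CPM in control myoblasts, 1140, 1180 and 1140 CPM in control myotubes, 389, 399 and 398 CPM in knockout myoblasts, and 430, 458 and 474 CPM in knockout myotubes. Control myotubes stood far above the other groups (difference in response −1.81 ± 0.08, adjusted p = 9.33e-12). Trib3 (chromosome 2, 152337422 to 152344032, minus strand), a pseudokinase induced through this factor, had 3.99, 4.71 and 4.34 CPM in control myoblasts, 352, 348 and 299 CPM in control myotubes, 10.3, 7.79 and 6.60 CPM in knockout myoblasts, and 6.57, 7.18 and 7.11 CPM in knockout myotubes. It rose 76.6-fold in the control, while the knockout groups overlapped and their change did not pass the test (log2 −0.24 ± 0.14, adjusted p = 0.144). The responses differed by −6.50 ± 0.21 (adjusted p = 2.35e-13). Asns, asparagine synthetase, rose in the control (74.9 to 632 CPM) and in the knockout (146 to 169 CPM; means, −2.86 ± 0.12, adjusted p = 4.27e-12).

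Genes of cystine and cysteine supply were among the reversed ones. Slc7a11, the cystine and glutamate exchanger, had 1.5, 1.06 and 1.18 CPM in control myoblasts, 24.8, 24.1 and 27.4 CPM in control myotubes, 2.80, 2.95 and 2.35 CPM in knockout myoblasts, and 0.512, 0.318 and 0.397 CPM in knockout myotubes. It rose 20.4-fold in the control and fell 6.59-fold in the knockout (−7.06 ± 0.32, adjusted p = 7.36e-12). Cth, the enzyme that releases cysteine from cystathionine, rose in the control (3.07 to 52.8 CPM) and fell in the knockout (5.48 to 1.57 CPM; −5.89 ± 0.20, adjusted p = 2.57e-13). The promoter of Slc7a11 (RefSeq, GRCm38.p6, minus strand, chr3:50443634-50443863) carries the amino acid response word TGATGCAA 66 bases before the start and its reverse complement TTGCATCA 47 bases before it, both in capitals.
Slc7a11: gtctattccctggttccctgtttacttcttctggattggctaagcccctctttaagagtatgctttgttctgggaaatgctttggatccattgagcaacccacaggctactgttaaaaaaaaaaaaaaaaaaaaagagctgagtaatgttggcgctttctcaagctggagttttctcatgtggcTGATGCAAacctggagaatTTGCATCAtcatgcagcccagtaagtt
On either strand TGATGCAA stood in 0.721% of all promoters, in 28.6% of those of this list (8 of 28, 95% Wilson interval 15.3 to 47.1%), in 3.96% of those of smaller responses that rose (15 of 379) and in 2.21% of those of reversed genes that rose in the control (10 of 453).

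**Figure D4:**
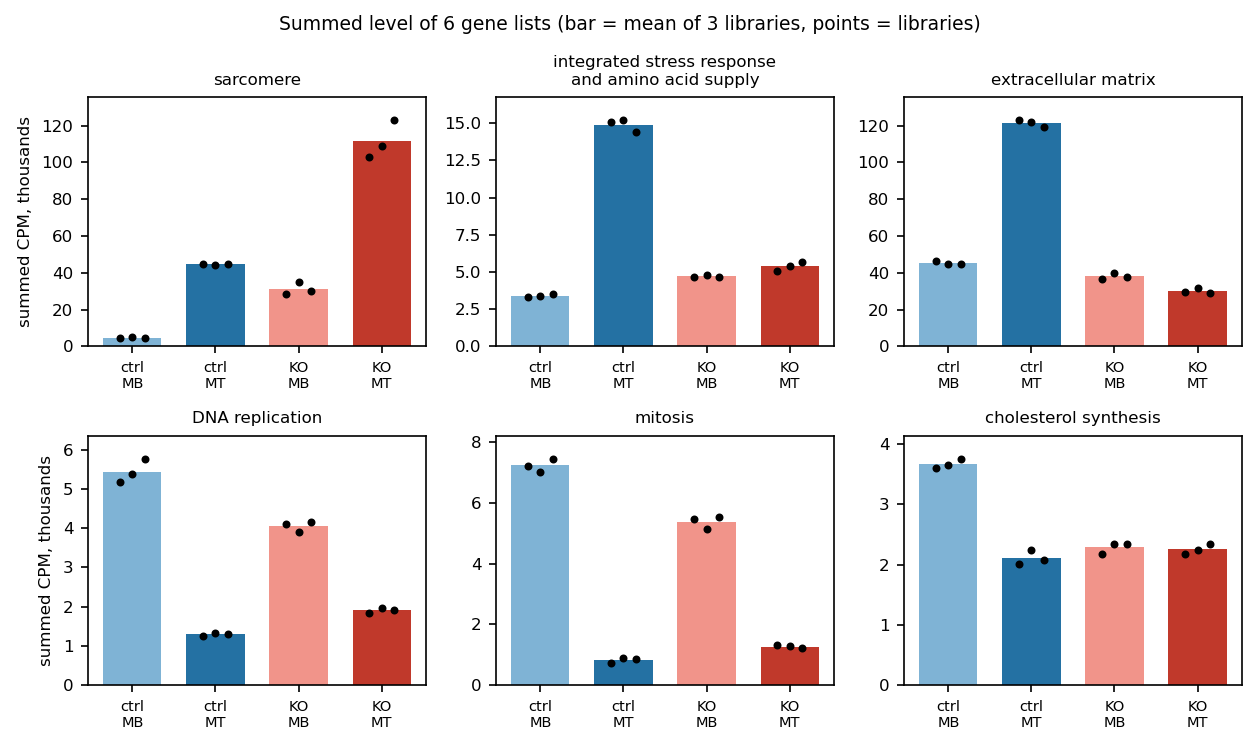
Summed CPM of 6 gene lists (vertical axes, starting at 0, with the scale on each axis) in each group, with bars for the mean of 3 libraries and points for libraries (ctrl control, KO knockout, MB myoblasts, MT myotubes). Sarcomere sums rise in both lines from different starting levels, the stress response sum rises far more in the control than in the knockout, the extracellular matrix sum rises in the control alone, and the knockout replication and mitosis sums start lower and end higher than those of the control.

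Extracellular matrix genes mostly rose in the control and fell in the knockout: 39 of 62 tested rose and 12 fell in the control, and 12 rose and 38 fell in the knockout. Of the 62, 46 had a lower and 4 a higher response in the knockout (median difference −1.40), and 22 were reversed genes that rose in the control. Their sum was 44900 to 46400 CPM in control myoblasts and 119000 to 123000 CPM in control myotubes, against 36900 to 39800 CPM in knockout myoblasts and 29200 to 31600 CPM in knockout myotubes. In myotubes 45 of the 62 were lower in the knockout. Markers of fibroblasts and other mesenchymal cells moved with these genes: 9 of 12 tested had a lower and none a higher response, and all 12 were lower in knockout myotubes. The marker sum was 2090 to 2150 CPM in myoblasts and 2340 to 2540 CPM in myotubes of the control, and 1300 to 1320 CPM and 582 to 632 CPM in those of the knockout. The part of such cells in the matrix result was not tested.

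Col15a1 (chromosome 4, 47208161 to 47313167, plus strand), a collagen of basement membrane zones, had 0.918, 0.961 and 0.980 CPM in control myoblasts, 310, 250 and 247 CPM in control myotubes, 7.01, 6.68 and 5.96 CPM in knockout myoblasts, and 1.31, 1.74 and 1.44 CPM in knockout myotubes. The knockout was 6.88-fold above the control in myoblasts and 179-fold below it in myotubes, and the responses differed by −10.26 ± 0.18 (adjusted p = 3.13e-17). Its exons overlap Gm12426 on the opposite strand. Among the fibrillar collagens, Col1a2 rose in the control (2780 to 6400 CPM) and fell in the knockout (2020 to 1110 CPM; means, −2.06 ± 0.12, adjusted p = 1.62e-10). Col3a1 rose from 2820 to 18300 CPM in the control and had 4700 and 4990 CPM in the knockout, where its change did not pass the test (log2 0.09, adjusted p = 0.484; difference −2.61 ± 0.15, adjusted p = 2.27e-10). Gm47302 overlaps Col3a1 on the same strand.

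Other genes of matrix and mesenchymal cells also had lower responses in the knockout, with Loxl2 as an exception. Scara5 (chromosome 14, 65666403 to 65764826, plus strand), a ferritin receptor of mesenchymal cells, had 0.150, 0.0961 and 0.134 CPM in control myoblasts, 343, 224 and 242 CPM in control myotubes, 0.452, 0.455 and 0.374 CPM in knockout myoblasts, and 4.22, 4.87 and 3.70 CPM in knockout myotubes. The rise in the knockout was 9.99-fold and ended 63.3-fold below the control (difference −7.71 ± 0.39, adjusted p = 4.77e-11). Dpt, the matrix protein dermatopontin, had 85.8, 93.6 and 87.6 CPM in control myotubes and 0.267 to 0.765 CPM in each library of the other 3 groups (−8.28 ± 0.31, adjusted p = 8.85e-13). Ly6a, a surface marker of mesenchymal progenitors from a family of similar genes, fell in the control (166 to 98.2 CPM) and in the knockout (8.98 to 0.347 CPM; −3.92 ± 0.23, adjusted p = 3.39e-10). Loxl2, an enzyme that crosslinks collagen, fell in the control (15.9 to 7.40 CPM) and rose in the knockout (34.4 to 61.2 CPM; 1.94 ± 0.19, adjusted p = 1.44e-07), and its exons overlap Gm27177 on the opposite strand.

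**Figure D5:**
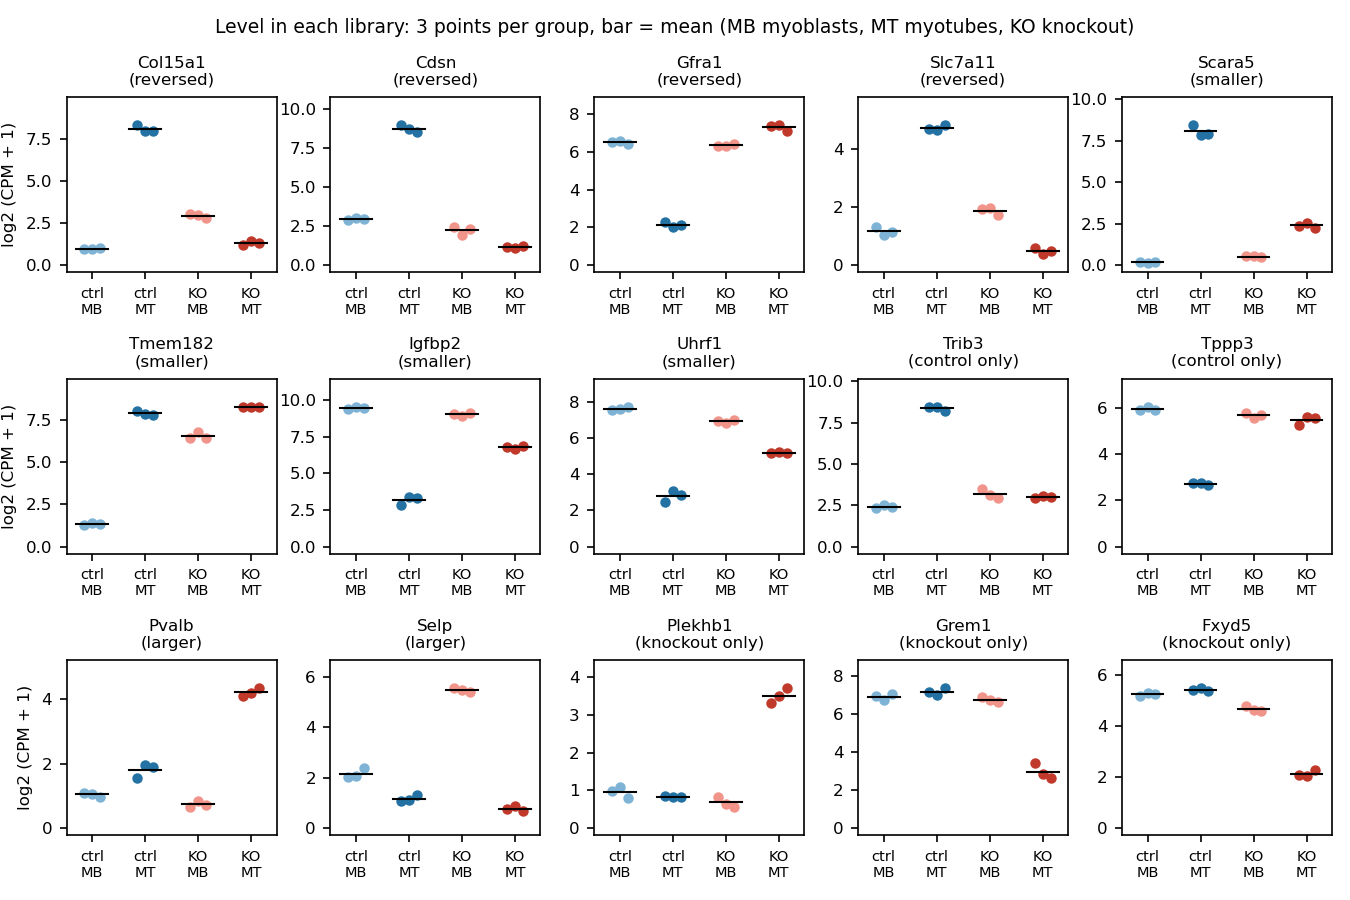
Level of 15 genes in each library as log2 of CPM plus 1 (vertical axes), with 3 points per group and a bar at their mean (ctrl control, KO knockout, MB myoblasts, MT myotubes). Col15a1, Cdsn and Slc7a11 rise in the control panels and drop in the knockout panels, Gfra1 does the reverse, Tmem182 starts high in knockout myoblasts, and Grem1 and Fxyd5 are low in knockout myotubes alone.

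Reversed responses outside these lists included a skin adhesion protein and a neurotrophic receptor. Cdsn (chromosome 17, 35552128 to 35557180, plus strand), corneodesmosin of the outer epidermis, had 6.59, 7.29 and 6.86 CPM in control myoblasts, 501, 421 and 376 CPM in control myotubes, 4.39, 2.86 and 3.90 CPM in knockout myoblasts, and 1.26, 1.14 and 1.30 CPM in knockout myotubes. It rose 62.6-fold in the control and fell 3.01-fold in the knockout (−7.56 ± 0.23, adjusted p = 1.37e-13). Gfra1 (chromosome 19, 58235604 to 58455909, minus strand), the GDNF co-receptor, had 89.9, 95.5 and 84.4 CPM in control myoblasts and 78.7, 77.8 and 83.8 CPM in knockout myoblasts, where the lines did not differ by the test (adjusted p = 0.176). In myotubes it had 3.88, 3.09 and 3.34 CPM in the control and 165, 168 and 136 CPM in the knockout, so that the responses differed by 5.67 ± 0.16 (adjusted p = 2.36e-14). Its exons overlap Gm16277 on the opposite strand.

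Mest, a paternally expressed imprinted gene, was reversed at a very low level. It fell in the control (59.8 to 3.24 CPM) and rose in the knockout (0.254 to 0.808 CPM; 5.89 ± 0.31, adjusted p = 9.93e-11). The knockout was below the control at both stages, and Copg2 overlaps it on the opposite strand. Adgrg3, an adhesion G protein-coupled receptor, fell in the control (50.3 to 4.17 CPM) and rose in the knockout (6.08 to 8.14 CPM; 4.02 ± 0.14, adjusted p = 2.57e-13). Of 30 imprinted genes outside the Dlk1-Dio3 cluster, 9 had a higher and 13 a lower response. Their median of −0.15 lay near that of all genes and was 0.01 with DESeq2 size factors. The imprinted genes together summed to 5530 to 5840 CPM in control myoblasts and 6370 to 6540 CPM in control myotubes. In the knockout they summed to 17200 to 17700 CPM and 26900 to 29900 CPM in the same order. Most of these knockout sums was H19, described below.

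Both IGF ligands had lower responses in the knockout, while the list as a whole, which includes H19, summed to higher levels there. Of 22 genes, 12 had a lower and 6 a higher response (median difference −0.45), and 12 were higher and 5 lower in knockout myoblasts. The list summed to 5390 to 5700 CPM in control myoblasts, 7090 to 7330 CPM in control myotubes, 19600 to 20300 CPM in knockout myoblasts and 29100 to 31800 CPM in knockout myotubes. H19, the non-coding RNA gene next to Igf2, is in this list and in the imprinted one, and was singled out after its values were seen. It made up most of the knockout sums of both lists. Its means were 2970 and 3600 CPM in the control and 14400 and 24400 CPM in the knockout (difference 0.48 ± 0.12, adjusted p = 0.00244), and its counts are uncertain where it overlaps Mir675 and gene models on the other strand. Igf1 rose from 11.3 to 77.5 CPM in the control and had 6.28 and 6.97 CPM in the knockout (means, −2.63 ± 0.36, adjusted p = 2.34e-05), where its change did not pass the test (adjusted p = 0.624). Igf2 rose 5.25-fold in the control (4.52 to 23.7 CPM) and 1.76-fold in the knockout (5.84 to 10.3 CPM; −1.57 ± 0.19, adjusted p = 2.57e-06), and Igf2os overlaps it on the opposite strand. Igfbp2, a binding protein that holds these ligands, had 672, 740 and 698 CPM in control myoblasts, 6.06, 9.22 and 8.77 CPM in control myotubes, 533, 484 and 546 CPM in knockout myoblasts, and 112, 102 and 117 CPM in knockout myotubes. The control fell 87.7-fold and the knockout 4.71-fold (4.22 ± 0.18, adjusted p = 9.42e-12).

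In the TGF-beta, BMP and myostatin list, 23 of 44 genes had a lower and 10 a higher response (median −0.68). The ligands Gdf11, a relative of myostatin, and Inhbb, an activin subunit, were reversed, each falling in the control and rising in the knockout. Gdf11 went from 60.1 to 35.2 CPM and from 73.8 to 121 CPM (1.48 ± 0.10, adjusted p = 2.34e-09), and Inhbb from 73.9 to 28.2 CPM and from 83.7 to 120 CPM (1.91 ± 0.12, adjusted p = 4.36e-10). Grem1, a secreted BMP antagonist, had 123, 108 and 132 CPM in control myoblasts, 143, 128 and 164 CPM in control myotubes, 121, 105 and 99.8 CPM in knockout myoblasts, and 9.63, 6.29 and 5.29 CPM in knockout myotubes. Only the knockout myotubes stood low (−4.19 ± 0.32, adjusted p = 6.1e-08). Among 22 Notch genes 9 were lower and 6 higher, with a median of −0.20, a split that was 5 lower and 8 higher with DESeq2 size factors. Jag1, a Notch ligand, rose 4.32-fold in the control and fell 2.06-fold in the knockout (−3.15 ± 0.13, adjusted p = 2.44e-12). Among 45 Wnt genes 13 (28.9%) were lower and 10 (22.2%) higher (median −0.21), near the 29.9% and 20.2% of all genes. The ligand Wnt10a fell in the control (50.7 to 23.8 CPM) and rose in the knockout (16.6 to 78.4 CPM; 3.33 ± 0.18, adjusted p = 7.5e-11).

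Cholesterol synthesis genes fell in the control more than in the knockout: 22 of 24 fell in the control and 10 in the knockout, where 6 rose. Of the 24, 19 had a higher and none a lower response (median difference 0.67). Their sum was 3600 to 3760 CPM in control myoblasts and 2010 to 2250 CPM in control myotubes, and 2170 to 2350 CPM in knockout myoblasts and 2180 to 2350 CPM in knockout myotubes, so the myotube sums of the lines overlapped. In myoblasts 21 of the 24 genes were lower and 1 higher in the knockout, and in myotubes 8 were lower and 10 higher. Fdps, which makes farnesyl pyrophosphate, fell in the control (47.2 to 25.8 CPM) and rose in the knockout (28.1 to 39.2 CPM; 1.35 ± 0.14, adjusted p = 3.09e-07), and Gm43738 overlaps it on the same strand. Dhcr7, the enzyme of the last step, had 64.3, 68.3 and 68.8 CPM in control myoblasts, 86.5, 84.4 and 77.6 CPM in control myotubes, 40.9, 46.9 and 44.9 CPM in knockout myoblasts, and 147, 161 and 195 CPM in knockout myotubes. Its rise was larger in the knockout (1.62 ± 0.13, adjusted p = 1.97e-08).

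Genes of sugar metabolism and respiration had a higher response in the knockout more often than a lower one. Of 44 genes of creatine, glycogen and glycolysis, 22 had a higher and 10 a lower response (median 0.39). The list summed to 7470 to 8350 CPM in control myotubes and 13900 to 17600 CPM in knockout myotubes, from 8430 to 9140 and 8100 to 8520 CPM in myoblasts. Slc2a4, the insulin-dependent glucose transporter GLUT4, fell in the control (1.90 to 1.13 CPM) and rose in the knockout (3.85 to 12 CPM; 2.39 ± 0.26, adjusted p = 6.04e-07). Ldhb, the heart-type lactate dehydrogenase subunit, had means of 7.17 and 2.00 CPM in the control, where it fell, and 13.6 and 27.9 CPM in the knockout, where it rose (2.88 ± 0.20, adjusted p = 2.66e-09). Pgam2, the muscle phosphoglycerate mutase, had the smaller response typical of sarcomere genes on the log2 scale (−2.98 ± 0.39, adjusted p = 1.46e-05), with gains of 25.2 CPM in the control and 167 CPM in the knockout. Among 78 nuclear-encoded respiratory chain subunits 31 had a higher and 6 a lower response (median 0.19), and with DESeq2 size factors 47 and 4 did. Cox6a2, the muscle isoform of a cytochrome oxidase subunit, was among the lower ones (−6.06 ± 0.31, adjusted p = 2.5e-10), and Itgad overlaps it on the opposite strand. Mitochondrial biogenesis and fatty acid oxidation were split, with 14 higher and 13 lower of 50 (17 and 7 with DESeq2 size factors). Lpl, lipoprotein lipase, rose 3.19-fold in the control and fell 3.39-fold in the knockout (−3.43 ± 0.22, adjusted p = 1.04e-09).

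Of 26 genes of smooth muscle and of the serum response factor, 12 had a higher and 5 a lower response in the knockout (median 0.43), and 13 and 3 did with DESeq2 size factors. The list summed to 18500 to 19000 CPM in control myoblasts, 8820 to 9700 CPM in control myotubes, 18300 to 18600 CPM in knockout myoblasts and 14000 to 15000 CPM in knockout myotubes. Actg2, the actin of visceral smooth muscle, had 142, 149 and 153 CPM in control myoblasts, 7.62, 14.2 and 9.45 CPM in control myotubes, 558, 541 and 518 CPM in knockout myoblasts, and 341, 379 and 416 CPM in knockout myotubes. The control fell 14.2-fold and the knockout 1.42-fold (3.32 ± 0.22, adjusted p = 4.65e-09). Cnn1, calponin, fell 118-fold and 2.24-fold (5.73 ± 0.64, adjusted p = 3.69e-06). Srf, the factor itself, fell in the control (101 to 52.3 CPM) and rose in the knockout (104 to 122 CPM; 1.18 ± 0.11, adjusted p = 5.05e-08), a call that was lost in a test against a 2-fold difference.

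Interferon-induced genes fell in the control (17 of 36, with 8 rising) and rose in the knockout (20, with 5 falling). Of the 36 tested, 19 had a higher and 3 a lower response (median 1.05), and 11 were reversed genes that fell in the control. The list summed to 874 to 911 CPM in control myoblasts, 720 to 781 CPM in control myotubes, 576 to 602 CPM in knockout myoblasts and 739 to 785 CPM in knockout myotubes, so that the sums of the lines overlapped in myotubes. Oasl2, an antiviral gene, had 2.57, 3.15 and 2.63 CPM in control myoblasts, 0.0758, 0.298 and 0.108 CPM in control myotubes, 0.387, 0.819 and 0.534 CPM in knockout myoblasts, and 1.98, 1.98 and 2.15 CPM in knockout myotubes (5.96 ± 0.44, adjusted p = 3.73e-09). It was highest in control myoblasts and lowest in control myotubes, with 4 to 13 counts per library there. Chromatin regulators showed no common direction, with 20 higher (29.9%) and 19 lower (28.4%) of 67 (median 0.03), and 27 and 14 with DESeq2 size factors.

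Larger responses differed in the starting level, the end level or both: among those of at least 2-fold difference, the myoblast part was the larger for 37.6% of those that rose and 5.61% of those that fell. Selp, the adhesion receptor P-selectin, had 3.09, 3.13 and 4.21 CPM in control myoblasts, 1.1, 1.17 and 1.48 CPM in control myotubes, 45.4, 43.9 and 40.8 CPM in knockout myoblasts, and 0.666, 0.820 and 0.585 CPM in knockout myotubes. Knockout myoblasts stood alone, so the fall was 2.79-fold in the control and 62.8-fold in the knockout (−4.49 ± 0.23, adjusted p = 3.45e-11); Gm16548 and Gm16587 overlap its exons on the opposite strand. Msln, the surface protein mesothelin, rose in the control (74.9 to 274 CPM) and in the knockout (12.3 to 228 CPM; 2.34 ± 0.17, adjusted p = 4.21e-09), so the lines differed chiefly in myoblasts. Chst1, a sulfotransferase of keratan sulfate, fell from 54.3 to 27.5 CPM and from 17.2 to 1.09 CPM (−3.01 ± 0.23, adjusted p = 1.04e-08).

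Some genes responded in a single line. Tppp3, a tubulin-binding protein, had 59.6, 65.3 and 60.0 CPM in control myoblasts and 5.74, 5.72 and 5.39 CPM in control myotubes, but 53.9, 46.9 and 51.3 CPM in knockout myoblasts and 36.9, 47.8 and 47.0 CPM in knockout myotubes. The knockout groups overlapped, and the response differed by 3.25 ± 0.15 (adjusted p = 1e-11). Plekhb1, a membrane-associated protein with a pleckstrin homology domain, had 0.735 to 1.13 CPM in control myoblasts, 0.755 to 0.796 CPM in control myotubes and 0.480 to 0.774 CPM in knockout myoblasts, and 9.0, 10.3 and 12.1 CPM in knockout myotubes (4.43 ± 0.29, adjusted p = 8.48e-10). Tspan7, a tetraspanin, rose from 0.982 to 15.6 CPM in the knockout and had 1.79 and 1.44 CPM in the control (4.29 ± 0.38, adjusted p = 1.43e-07). Fxyd5, a regulator of the sodium pump, had 35.1, 37.6 and 36.8 CPM in control myoblasts, 41.6, 43.3 and 39.8 CPM in control myotubes, 26.6, 23.7 and 22.9 CPM in knockout myoblasts, and 3.19, 3.15 and 3.78 CPM in knockout myotubes (−3.05 ± 0.14, adjusted p = 1.51e-11). The control did not pass its own test (adjusted p = 0.096), and Mir7050 lies within Fxyd5 on the same strand.

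Markers of other cell types summed to at most 214 CPM per list in any library, apart from the mesenchymal genes above. Among the tested adipocyte markers 1 of 6 had a higher and 3 a lower response, and their sum was 67.0 to 71.6 CPM in myoblasts and 56.0 to 60.8 CPM in myotubes of the control, and 53.2 to 55.6 CPM and 33.6 to 35.5 CPM in those of the knockout. Some defining genes of these cells (Adipoq, Plin1, Pecam1, Ptprc and Epcam) did not pass the filter on low counts. Others did, among them the endothelial genes Flt1 and Vwf and the immune gene Csf1r. The response of Csf1r was lower in the knockout (log2 −2.06 to −1.68 across the alternative fits named below). Of 15 osteoblast and chondrocyte markers 1 was higher and 1 lower, with sums of 197 to 214 CPM and 123 to 134 CPM in myoblasts and myotubes of the control and 186 to 202 CPM and 77.2 to 89.0 CPM in those of the knockout. Endothelial markers (2 of 6 lower, 1 with library totals) summed to at most 10.9 CPM and immune markers (2 of 5 lower, 1 with library totals, and 1 lower and 1 higher with DESeq2 size factors) to at most 13.4 CPM in any library. Neuronal markers had 4 higher and 3 lower of 11, with sums of 156 to 165 CPM and 41.3 to 47.2 CPM in the control and 165 to 172 CPM and 59.3 to 60.5 CPM in the knockout. Epithelial markers had 1 higher and 2 lower of 5 (2 and 2 with DESeq2 size factors), with sums of 56.4 to 58.3 CPM and 37.6 to 42.1 CPM in the control and 17.7 to 20 CPM and 28.1 to 32.3 CPM in the knockout. Krt14, an epithelial keratin and 1 of the 2 lower ones, fell in the control (51.3 to 15.3 CPM) and in the knockout (11.1 to 0.588 CPM; −2.53 ± 0.24, adjusted p = 1.09e-07). The 1 higher marker was the keratin Krt19, with a log2 difference in response of 3.32 to 3.96 across the alternative fits named below. The part of such cells in the results was not tested.

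Genes with more reads were called more often. From the lowest to the highest of 5 equal bins of mean CPM, 19.3%, 45.6%, 59.2%, 62.3% and 64.3% of genes passed the test. Of protein-coding genes 57.3% did, of lincRNA genes 32.9% and of antisense genes 24.0%. Calls were spread over the chromosomes, from 46.6% on chromosome 3 to 55.0% on chromosome 15, and the median difference ran from −0.42 on chromosomes 12 and 13 to 0.11 on chromosome 17. Chromosome 12 carries the Dlk1-Dio3 cluster.

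The response of the knockout was also compared with that of the overexpressor clone, in which Meg3 had 5222 to 7763 counts per library. By this test 8370 genes (46.7%) differed. This comparison shares the knockout libraries with the one above. The log2 responses of Tmem182 were 7.28 (control), 4.62 (overexpressor) and 1.71 (knockout). In the same order they were −4.71, 0.18 and 0.97 for Gfra1, 2.01, 0.65 and 0.20 for Atf4, −5.02, −2.60 and −1.77 for Uhrf1 and −6.46, −4.27 and −2.24 for Igfbp2. For these examples the overexpressor lay between the control and the knockout, which did not hold for every named gene. For Scara5, Pvalb, Cnn1 and Actg2 the knockout response minus that of the overexpressor was 4.9, −2.94, −3.8 and −0.91. These signs are opposite to those of knockout minus control, so the overexpressor lay outside that range. It also lay outside for Ddit4l, Myh3, Myh7 and Msln (9.18, −5.94, −5.74 and 2.74), where the value was larger in size than knockout minus control. By these estimates it lay between for the other genes with a value in the closing sections.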

How the data were processed

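PolyA RNA of 18 libraries was sequenced (Illumina). Reads were aligned with STAR 2.7.9a to mm10 and assigned to genes with featureCounts (Subread 2.0.3), per the submitters' processing notes. The values used are the raw counts per gene that the authors deposited. The annotation release and strand setting are not given in the sources used here, so reads of genes that overlap on opposite strands cannot be told apart. Names and coordinates came from GENCODE M21, which held 55190 of 55450 gene IDs. Promoters came from RefSeq (GRCm38.p6), and the words TGATGCAA and GGCGGGAA searched in them were chosen after seeing the data.

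The counts were fitted with edgeR 4.0.16 in R 4.3.3 (robust quasi-likelihood, TMM factors, filterByExpr by group) over all 18 libraries with 6 group means and 12 residual degrees of freedom. The tested genes held at least 99.97% of each library's counts. Standard errors are the absolute log2 value divided by the square root of F, and CPM use TMM-scaled library sizes. On simulated counts of this comparison (17620 genes), 79% of 100 genes changed by a log2 difference of 1 and 95% of 100 changed by 2 were called, with 8 of 13277 unchanged genes. These genes had a mean above 1 CPM, and no other gene was made to differ. In the data 50.1% of genes differed, so the simulation does not cover false calls from scaling or genes of lower counts.

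Named genes were, in each class and direction, the 3 with the largest difference of log2(mean CPM + 1) among those that passed the test, differed by at least 2-fold and reached 5 CPM, and in each list the 2 highest and 2 lowest that passed; not all are printed. A further 15 (Acta1, Tmod4, Tpm1, Atf4, Asns, Cth, Col1a2, Col3a1, Mcm5, Id3, Pax7, Igf1, Igf2, Srf and Fdps) were chosen after their values were seen. The members and lists were chosen with earlier results of these data known. Alternatives were DESeq2 1.42.0, other scalings, filters and thresholds, a replicate block, and leaving out each replicate. The main fit did not pair libraries by the letters A to C.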

Additional observations from a re-analysis of the deposited data

Results flagged for a closer look

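The difference between the responses of the 2 lines was itself tested as an interaction: 8978 genes passed, and in 1471 of them the lines responded in opposite directions. For the genes named by class, the response of the knockout was also tested against that of the overexpressor clone, a comparison that uses the same knockout libraries, and the values below (knockout minus overexpressor, log2) are those that passed.

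Among genes whose response was reversed between knockout and control, the difference was −6.35 for Col15a1, −5.76 for Stc1, 0.79 for Gfra1, 1.12 for Mest and 0.46 for Adgrg3. Stc1, a secreted glycoprotein hormone, had at most 4 counts in each knockout myotube library and at most 2 in each overexpressor library, so its value is not a measure of size. Among genes with a smaller response it was 4.90 for Scara5, −5.94 for Myh3, −5.74 for Myh7, 2.04 for Igfbp2, −3.80 for Cnn1 and −0.91 for Actg2. Among genes that responded in the control only it was −1.49 for Trib3, −2.41 for Dpt, 3.58 for C3, 3.04 for Tppp3 and 1.93 for Xkr5.

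Among genes with a larger response it was −2.94 for Pvalb, 2.74 for Msln and −0.65 for Chst1. Among genes that responded in the knockout only it was 9.18 for Ddit4l, 2.98 for Tspan7, 2.98 for Plekhb1, −1.95 for Grem1, −1.77 for Snx22 and −0.81 for Fxyd5. Pvalb rose more in the overexpressor (log2 7.62) than in the knockout (4.68) and in the control (1.23).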

How the results depend on the processing

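Beside the 8978 differing genes, DESeq2 size factors gave 8896, library totals 8914, no filter 8047, the DESeq2 Wald test 9158 and a fit of the 12 libraries alone 9720. Of the 8978, 7896 were also called with DESeq2 size factors, 8331 with library totals, 7854 with no filter, 7990 with the Wald test and 8506 with the 12 libraries. None of the genes called in both fits had the other direction. A change of scaling moves all differences alike by a small amount, so for the scalings this check could hardly fail. Tested against a 2-fold difference, 1918 genes differed (766 higher, 1152 lower: 620 reversed, 647 smaller, 390 control only, 61 larger and 198 knockout only). Of the 4218 genes that differed by at least 2-fold, 3822 had the same direction in the difference of mean CPM. Under the other 2 scalings 46 of 56 list medians and 53 of 56 counts of called list members were close to those given. At an adjusted p of 0.01, 863 were reversed and 443 larger.

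Without 1 replicate, the number that differed ran from 8006 to 9234, with 3241 to 3659 higher and 4737 to 5575 lower. Reversed genes numbered 1201 to 1595, smaller 1728 to 1928, control only 1880 to 2358, larger 615 to 1037 and knockout only 1679 to 2547. With the letters as a replicate block 8481 genes differed, 8445 of them also without it. Deviations of same-letter libraries correlated between −0.181 and 0.166, so these libraries shared little deviation. What the letters mark is not stated in the labels and cannot be told from this.

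Of 130 named genes, 95 kept their call under every alternative. Of 2598 alternative values 124 lost the call and none reversed. Smc4 and Orc2, the remaining exceptions among mitosis and replication genes, had differences of −1.45 (adjusted p = 0.0287) and −0.80 (adjusted p = 0.0189). Smc4 lost its call without control myoblast replicate B or C, control myotube C, knockout myoblast A or knockout myotube B or C (adjusted p up to 0.383), and Orc2 without control or knockout myotube C. In the lowest of 5 bins of CPM 19.3% of genes were called, and the part of depth in this was not tested.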
